A study of Mus musculus with 2 samples.

Results

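The mouse mitochondrial genome encodes 37 genes, and these are the genes described here. They were chosen by symbol, as every gene of the deposited gene tables whose mouse symbol begins with mt-, which gave 37 of the 43346 genes with an Ensembl identifier. Of them 13 are protein-coding, 2 are ribosomal RNAs and 22 are transfer RNAs. The samples were 2 RNA-seq libraries of poly(A)-selected spleen RNA, both from the same adult male C57BL/6J mouse, aged 10 weeks. The labels give them as technical replicates 1 and 2 of a single biological replicate, and state no treatment or allele for either. Both libraries carry a labelled size range of 350 to 450, whose unit is not stated, and per the labels replicate 2 was prepared later and was not part of an earlier publication. A comparison of 1 library with 1 library allows no p-value, so every difference below is one between these libraries only.

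The mitochondrial genome is a small circle carried in many copies per cell. Nearly all of it is transcribed from both strands into long precursors, which are cut mainly at the transfer RNAs that lie between the other genes, and most of the resulting messenger RNAs receive short poly(A) tails. All of its proteins are subunits of the respiratory chain or the ATP synthase, built together with many subunits encoded in the nucleus, and its ribosomal and transfer RNAs serve their translation.

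Pieces of the mitochondrial genome are also found in nuclear DNA, and a long one on mouse chromosome 1 bears on 7 of the genes. A search of all annotated transcripts for stretches of at least 200 bases with at least 99% identity found a copy of mt-Atp6, mt-Co1, mt-Co2, mt-Co3, mt-Nd3, mt-Nd4 and mt-Nd4l there. Each copy is annotated as an unprocessed pseudogene on the minus strand. The copy of mt-Co2 (chrM:7013-7696, GRCm38, plus strand) is Gm28661 (chr1:24614885-24615565), identical over 681 of 684 bases. The copy of mt-Co3 (chrM:8607-9390) is Gm28437 (chr1:24613189-24613971), identical over 783 of 784 bases. Their ends are shown because they hold all that separates the annotated sequences, and capitals mark the bases of the mitochondrial gene past the end of its copy. Sequences are from the GENCODE M21 transcripts.
mt-Co2: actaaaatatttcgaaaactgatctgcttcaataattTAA
Gm28661: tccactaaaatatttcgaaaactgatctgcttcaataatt
mt-Co3: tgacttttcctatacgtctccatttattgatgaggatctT
Gm28437: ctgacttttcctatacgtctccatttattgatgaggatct

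The 7 aligned regions held 2 base differences in all, given here as the mitochondrial base, its position counted from 1 at the gene's 5′ end, and the base of the copy. In mt-Co1 (chrM:5328-6872) the difference from Gm29216 (chr1:24615706-24616197) was A1066T, within 483 aligned bases of 1545. In mt-Nd3 (chrM:9459-9806) the difference from Gm28438 (chr1:24612775-24613119) was T3C, within 345 aligned bases of 348. The windows below show these differences, with the differing base in capitals. Most of mt-Co1 lies outside its aligned bases, while nearly all of mt-Nd3 lies within them.
mt-Co1: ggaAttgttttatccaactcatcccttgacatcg
Gm29216: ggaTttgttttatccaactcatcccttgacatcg
mt-Nd3: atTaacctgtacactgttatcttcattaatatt
Gm28438: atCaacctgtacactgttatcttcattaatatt

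Genes of the circle also share bases with their neighbours. mt-Atp8 (chrM:7766-7969) and mt-Atp6 (chrM:7927-8607) are read from the same strand and overlap by 43 bases, in capitals below, the longest overlap in the set.
mt-Atp8: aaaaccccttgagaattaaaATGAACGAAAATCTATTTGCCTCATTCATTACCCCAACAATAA
mt-Atp6: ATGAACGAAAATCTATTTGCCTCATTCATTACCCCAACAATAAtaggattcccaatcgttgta

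mt-Nd4l and mt-Nd4 share 7 bases of the same strand, and mt-Nd5 and mt-Nd6 share 14 bases on opposite strands. mt-Nd6 (chrM:13552-14070) is the 1 protein-coding gene on the minus strand. Whether reads were assigned by strand is not given in the sources used here, so counts of mt-Nd6 could include reads from the opposite strand.

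The mitochondrial genes made up a far larger part of replicate 1 than of replicate 2. They held 1354902 of 27528824 expected counts in replicate 1, which is 4.92% of the library (exact Clopper-Pearson 95% interval 4.91% to 4.93%). In replicate 2 they held 17605 of 3806381, or 0.463% (0.456% to 0.469%). The share was 10.6-fold lower in replicate 2. With the counts of the 7 nuclear copies added it went from 7.39% to 0.611%, which is 12.1-fold lower. All intervals here cover counting error only, and reads copied by PCR are not independent molecules. In bulk tissue, fewer cells of a type and less RNA per cell cannot be told apart.

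In TPM, a unit that divides each count by effective length and scales every library to the same sum, the genes summed to 10.6% of replicate 1 and 0.429% of replicate 2. Of the 20 genes with the highest TPM in replicate 1, 5 were mitochondrial, against 0 of 20 in replicate 2. Within the highest 100 there were 10 in replicate 1 and 1 in replicate 2. The one in replicate 2 was mt-Co2, at rank 80.

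Each gene was then compared as a log2 ratio, replicate 2 over replicate 1, after scaling the libraries by TMM (trimmed mean of M values, a scaling that assumes most genes do not differ). A gene was called when its whole 95% counting interval lay beyond 1.5-fold. All 15 genes with counts passed the filter on low values, and none of the 22 transfer RNAs did. Among those with counts, mt-Atp6, mt-Nd3 and mt-Nd4l had them in replicate 1 alone and passed the filter through it. No call but lower was open to them, so their direction, apart from their copies, is no result. They are among the 10 called lower. Of the 15, 5 were called higher in replicate 2, where 28.0% of the 12467 tested genes were higher, and 10 were called lower, where 32.6% of them were lower. Their median log2 ratio was -2.87, against -0.27 over all tested genes.

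The scale matters to these directions. Scaled by total counts, 2 of the 15 were higher (14.6% of all tested genes) and 10 lower (58.5%), with medians of -4.14 for the mitochondrial genes and -1.53 for all genes. The change of scale moves every log2 ratio by 1.26. The 2 genes higher on both scales were mt-Co2 and mt-Nd6, with each gene counted apart from any nuclear copy. The 10 lower genes were lower on both, but they include mt-Atp6, mt-Nd3 and mt-Nd4l, which had 0 counts in replicate 2. For these genes no other call was open on either scale.

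**Figure D1:**
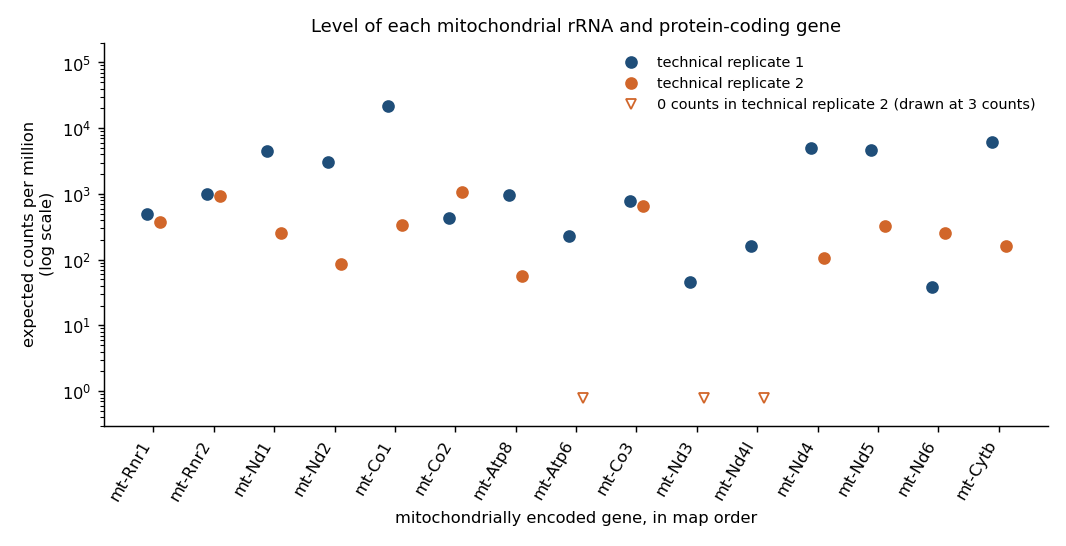
Expected counts in CPM, scaled to the library total (log axis), for the 2 ribosomal RNA and 13 protein-coding mitochondrial genes in map order, 1 point per library with no error bars; open triangles mark 0 counts in technical replicate 2, drawn at 3 counts. mt-Co1 had 21653 CPM in replicate 1 and 341.0 in replicate 2, while mt-Co2 and mt-Nd6 lay higher in replicate 2.

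The division of counts between the genes and their nuclear copies differed between the libraries. mt-Co2, the subunit of cytochrome c oxidase that takes electrons from cytochrome c, held 11831 of the 239728 counts of its pair in replicate 1, or 4.94%. In replicate 2 it held all 4093 counts of its pair, with 0 on Gm28661. mt-Co3, another core subunit of the same enzyme, held 9.74% of 221940 counts in replicate 1 and 99.9% of 2536 in replicate 2. By expected count both genes thus went from a small part of their pair to nearly all of it, a split that the second estimate below gives less firmly.

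For mt-Atp6, mt-Nd3 and mt-Nd4l the whole count of replicate 2 was on the copy. mt-Atp6, the ATP synthase subunit that forms the proton path, held 3.42% of 186602 pair counts in replicate 1 and 0 of 812 in replicate 2, the rest lying on Gm10925 (chr1:24613974-24614651). mt-Nd3, a complex I subunit, held 7.19% of 17820 and then 0 of 1566. mt-Nd4l, another complex I subunit, held 24.0% of 18464 and then 0 of 12, the rest lying on Gm10222 (chr1:24612407-24612700). Reads of all 3 sequences were thus counted in replicate 2, although the genes are listed at 0.

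The remaining pairs are only partly alike in sequence. mt-Co1, the catalytic core of cytochrome c oxidase, held 93.5% of 637756 pair counts in replicate 1 and 33.7% of 3848 in replicate 2. mt-Nd4, a complex I subunit, held 99.9% of 139212 and 36.4% of 1092, with its copy Gm28439 (chr1:24611535-24612410) identical to its first 876 of 1378 bases. The part of the pair held by the mitochondrial gene was lower in replicate 2 for both.

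The deposited tables carry a second estimate, a posterior mean count with its standard deviation, which shows how firmly each split was made. For mt-Co2 in replicate 1 it was 32284 ± 28271 (posterior SD), or 13.5% of the pair. For mt-Co3 it was 67770 ± 47682 in replicate 1, and 1916 ± 412 in replicate 2. As a share of its pair that was 30.5% ± 21.5% and 75.6% ± 16.3%. For mt-Atp6 it was 27663 ± 24766 in replicate 1, and 159 ± 127 in replicate 2. These SDs reach 70.4% to 89.5% of the mean in replicate 1.

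By contrast, the SD was 0 in both libraries for mt-Rnr1, mt-Rnr2, mt-Nd1, mt-Nd5, mt-Nd6, mt-Cytb and mt-Atp8, none of which had a copy. For mt-Co1 the posterior mean in replicate 1 was 596019 ± 398, and for mt-Nd4 it was 138997 ± 71.7. Among the other genes with a copy, mt-Nd3 was at 1330 ± 214 and mt-Nd4l at 4471 ± 314 in replicate 1. The width was not a fixed property of a pair, since mt-Co2, so wide in replicate 1, was at 4038 ± 55.0 in replicate 2.

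**Figure D2:**
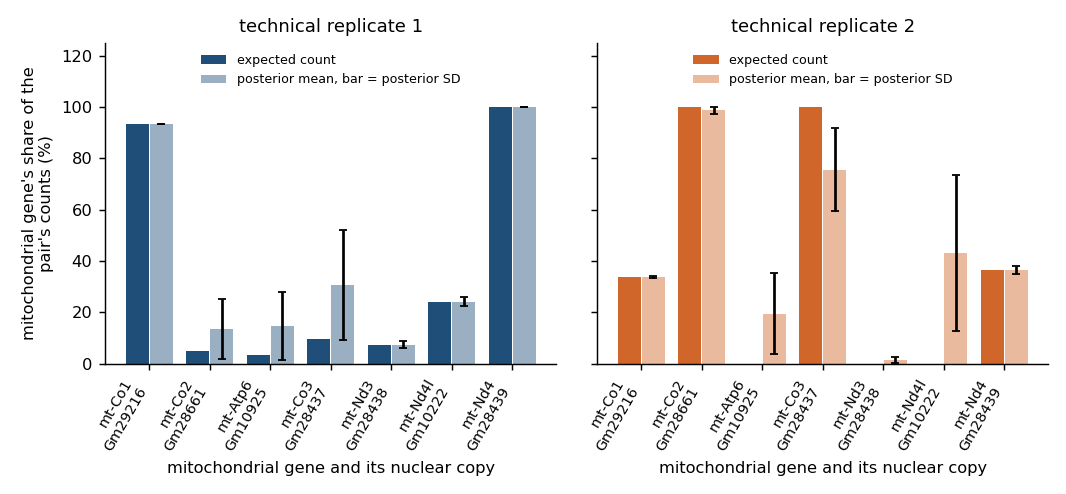
Share of the counts of each pair, in percent, held by the mitochondrial gene rather than its nuclear copy, by technical replicate; dark bars are the deposited expected counts, pale bars the posterior means with 1 posterior SD. For mt-Co2 the dark bar was 4.94% in replicate 1 and 100% in replicate 2, and for mt-Nd4 99.9% and 36.4%.

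Adding each copy to its gene changed the sign of 3 of the 15 log2 ratios, of which that of mt-Nd3 alone rested on a listed 0. mt-Co2 alone was higher in replicate 2, with a log2 ratio of 2.59 (95% interval 2.53 to 2.64), but the pair was lower, at -1.76 (-1.80 to -1.71). Alone it was at 1.12 with posterior mean counts and at 0.02 by TPM, where the call was lost. mt-Co3 alone was at 1.02 (0.96 to 1.08), but at -0.24 by total counts and -1.03 with posterior mean counts, and its pair was at -2.33 (-2.39 to -2.28). mt-Nd3 alone had 1281 and 0 counts, a direction that is no result. It was at -1.80 from posterior mean counts (1330 ± 214 and 21.9 ± 20.2, posterior SD). Its pair was at 0.61 (0.53 to 0.68), not called. That pair was called higher with DESeq2 size factors, at 0.73, and stood at -0.65 by total counts. Summed this way, 3 genes were higher, 11 lower and 1 was not called, against 28.0% higher and 32.6% lower over the 12460 features then tested. The median was -2.84.

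**Figure D3:**
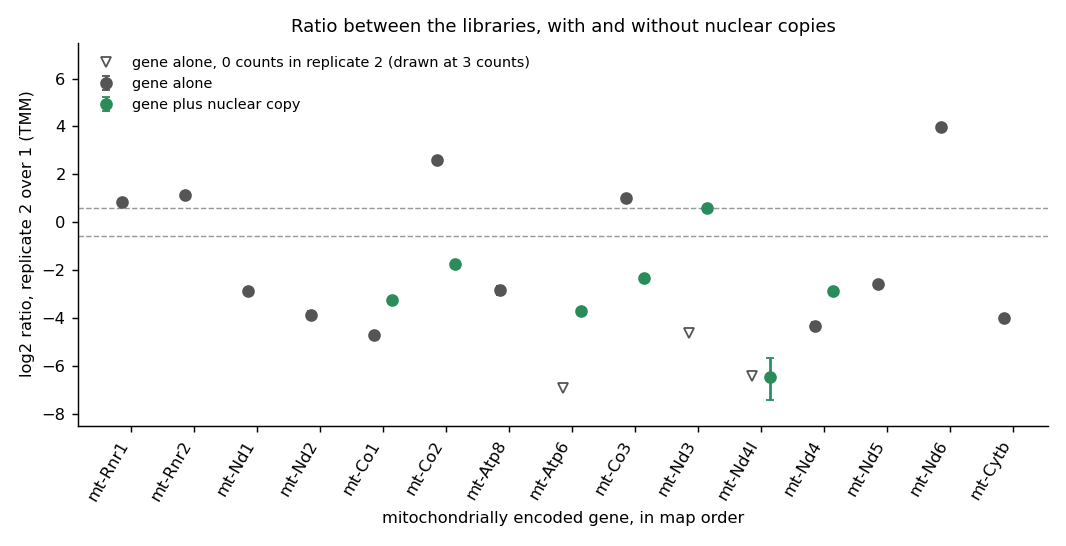
Log2 ratio of technical replicate 2 over 1 after TMM scaling for each gene alone (grey) and with its nuclear copy added (green), with 95% counting intervals, most of them narrower than the points; dashed lines mark 1.5-fold and open triangles are genes with 0 counts in replicate 2, drawn at 3 counts. mt-Co2 moved from 2.59 to -1.76 and mt-Co3 from 1.02 to -2.33 when the copy was added, and mt-Nd6, which has no copy, stood at 3.97.

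Complex I, the NADH dehydrogenase, takes 7 subunits from the mitochondrial genome, all of them parts of its membrane arm. Together they held 480399 counts in replicate 1 and 3891 in replicate 2, a log2 ratio of -2.83 (-2.88 to -2.79), and -2.26 (-2.29 to -2.22) with copies. mt-Nd1 had 123419 and 970 counts, and its log2 ratio was -2.87 (-2.97 to -2.78). mt-Nd2 had 83613 and 327 counts, at -3.88 (-4.04 to -3.72). mt-Nd5 had 127569 and 1241 counts, at -2.57 (-2.65 to -2.49). These 3 genes had no copy, and all of them were lower in replicate 2 by more than their counting error.

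mt-Nd4 had 139020 and 397 counts, at -4.34 (-4.48 to -4.19) alone and -2.88 (-2.96 to -2.79) with its copy. mt-Nd4l alone had 4440 and 0 counts, at -5.69 from posterior mean counts, and its pair was at -6.47 (-7.42 to -5.67). The 2 neighbours are carried on 1 messenger RNA, yet with copies mt-Nd4 had 1.63 times the counts per base of mt-Nd4l in replicate 1 and 19.6 times in replicate 2. mt-Nd4l is short, and its effective length, the number of positions at which a fragment fits, was 110.4 and 162.5 of 297 bases.

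mt-Nd6 departed from its complex. It had 1056 counts in replicate 1 and 956 in replicate 2, while the library total was 7.23-fold larger in replicate 1. Its level was 168.2 TPM in replicate 1 and 423.5 TPM in replicate 2. Its log2 ratio was 3.97 (3.85 to 4.10) by TMM, 2.71 by total counts and 1.33 by TPM, higher in replicate 2 on every one of these scales. Counts per base of mt-Nd5, which lies against it on the opposite strand, were 34.4 times those of mt-Nd6 in replicate 1 and 0.369 times in replicate 2. Without mt-Nd6, complex I with copies was at -2.50 (-2.54 to -2.46). The coding strand of mt-Nd6 is 22.2% A, and the other 12 protein-coding genes range from 29.5% to 40.7%.

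Complex III, the cytochrome bc1 complex, takes its cytochrome b subunit from this genome. mt-Cytb had 170383 counts in replicate 1 and 612 in replicate 2, and no copy. Its log2 ratio was -4.00 (-4.12 to -3.89), lower than those of mt-Nd1 and mt-Nd5 by more than the counting intervals.

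Complex IV, cytochrome c oxidase, takes its 3 core subunits from this genome, and every one of them has a nuclear copy. They held 629540 and 7925 counts, at -2.19 (-2.23 to -2.16), and 1099423 and 10477 with copies, at -2.60 (-2.62 to -2.57). mt-Co1 had 596086 and 1298 counts, at -4.73 (-4.81 to -4.65) alone and -3.26 (-3.30 to -3.21) with its copy. Alone, the 3 subunits of this one enzyme spread from -4.73 to 2.59, and with copies from -3.26 to -1.76.

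Complex V, the ATP synthase, takes 2 subunits, whose genes overlap. mt-Atp8, a small membrane subunit, had 26667 counts in replicate 1 and 214 in replicate 2, at -2.84 (-3.05 to -2.65). mt-Atp6 had 6389 and 0 counts, with a log2 ratio of -3.33 from posterior mean counts, and with its copy it was at -3.73 (-3.83 to -3.63). Per base and with the copy, mt-Atp6 had 2.10 times the counts of mt-Atp8 in replicate 1 and 1.14 times in replicate 2. The deposited TPM ranked mt-Atp8 first of all genes in replicate 1, at 41678 TPM, against 513.6 TPM in replicate 2. Its effective length was 33.4 of 204 bases in replicate 1 and 71.0 in replicate 2, and TPM divides by that number. On counts per base of full length, mt-Atp8 stood at 131 in replicate 1, below mt-Co1 with its copy at 413.

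The share of library counts on the ribosomal RNAs was 1.16-fold lower in replicate 2. mt-Rnr1, the small-subunit RNA, had 13812 counts in replicate 1 and 1438 in replicate 2, and mt-Rnr2, the large-subunit RNA, had 27712 and 3525. As a share of all counts they summed to 0.151% (0.149% to 0.152%) and 0.130% (0.127% to 0.134%). Their log2 ratio was 1.05 (1.01 to 1.10) by TMM but -0.21 by total counts and -1.48 by TPM, so its direction depends on the scale. No copy at or above the search limits was found for either gene.

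Shares within the mitochondrial counts do not depend on the scaling of the libraries. With copies in the total, the ribosomal RNAs were 2.04% (2.02% to 2.06%) of mitochondrial counts in replicate 1 and 21.4% (20.8% to 21.9%) in replicate 2. Among the other genes, mt-Nd6 went from 0.0519% to 4.11%, a 79.3-fold higher share, and mt-Nd3 with its copy from 0.875% to 6.74%. mt-Co1 went from 31.3% to 16.6%, and mt-Cytb from 8.37% to 2.63%. mt-Co3 stood at 10.9% in both, with a log2 ratio of its share of 0.00 (-0.06 to 0.06). The shares of mt-Nd5 were 6.27% and 5.34%, and those of mt-Nd4 6.84% and 4.70%.

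**Figure D4:**
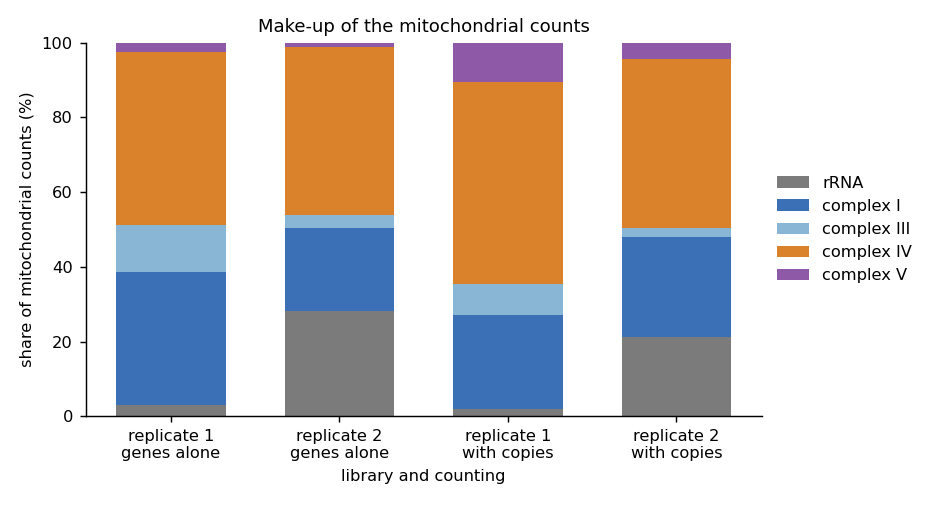
Stacked shares of the mitochondrial counts, in percent, held by the ribosomal RNAs and by the subunits of each respiratory complex in technical replicates 1 and 2, for the genes alone (left pair) and with nuclear copies added (right pair). The ribosomal RNA share was 3.06% and 28.2% for the genes alone and 2.04% and 21.4% with copies.

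Per base of gene length and with copies, the protein-coding genes of replicate 1 ran from 413 counts for mt-Co1 to 2.03 for mt-Nd6, a 203-fold range. In replicate 2 they ran from 5.98 for mt-Co2 to 0.0404 for mt-Nd4l, a 148-fold range. The order was led by complex IV and mt-Atp6 in replicate 1, with mt-Co2 at 350, mt-Co3 at 283 and mt-Atp6 at 274. In replicate 2 mt-Co2 was followed by mt-Nd3 at 4.50, mt-Co3 at 3.23 and mt-Co1 at 2.49. mt-Nd6, at 1.84, then stood above mt-Atp6 at 1.19.

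The 22 transfer RNAs, the adaptors that read the codons of these proteins, had 0 counts in both libraries. The genes are 59 to 75 bases long, and the deposited effective length of each was 0, which leaves no position for a fragment. The zeros are therefore not a measure of their level, and no upper limit is drawn from them.

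Subunits of the same complexes encoded in the nucleus went the other way under TMM. Of 77 tested, 62 were higher, 4 lower and 11 not called, with a median log2 ratio of 2.38, where 28.0% of all tested genes were higher and 32.6% lower. By total counts 42 were higher and 11 lower (14.6% and 58.5% of all genes), with a median of 1.11, and by TPM the median was 0.02. On the same 3 scales the mitochondrial median was -2.87, -4.14 and -6.34, and that of all tested genes was -0.27, -1.53 and -2.10. Both lists come from the same libraries, and no test of their difference is possible with 1 library on each side.

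In complex I, 35 of 36 nuclear subunits were higher by TMM and 1 lower, and the counts by complex are to be read against the same 28.0% and 32.6%. Ndufa2, an accessory subunit, had 235 and 2060 counts (32.2 and 802.1 TPM), a log2 ratio of 7.25 (7.05 to 7.45). Ndufs1, the largest iron-sulfur subunit, was the one lower, with 3105 and 68 counts, at -1.40 (-1.76 to -1.05). In complex II, which takes no subunit from the mitochondrial genome, 1 of 4 was higher and 3 were not called by TMM. By total counts, however, 0 were higher and 2 lower, against 14.6% and 58.5% of all tested genes. Sdhd, a membrane anchor of complex II, was at 1.14 (0.93 to 1.34) by TMM, -0.12 by total counts and -1.32 by TPM.

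In complex III 4 of 9 were higher and 1 lower. Uqcrq had 135 and 400 counts, at 5.68 (5.40 to 5.98), and the core protein Uqcrc2 had 4429 and 6, at -5.41 (-6.86 to -4.29). In complex IV 9 of 11 were higher and 0 lower, among them Cox4i1 with 1818 and 2244 counts, at 4.42 (4.33 to 4.51). mt-Co1, which sits in the same enzyme as Cox4i1, was at -3.26 with its copy. In complex V 13 of 17 were higher and 2 lower. Atp5e, a small stalk subunit, had 1235 and 3410 counts, at 5.58 (5.49 to 5.68), and Atp5b, the catalytic beta subunit, had 14004 and 186, at -2.12 (-2.33 to -1.91).

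**Figure D5:**
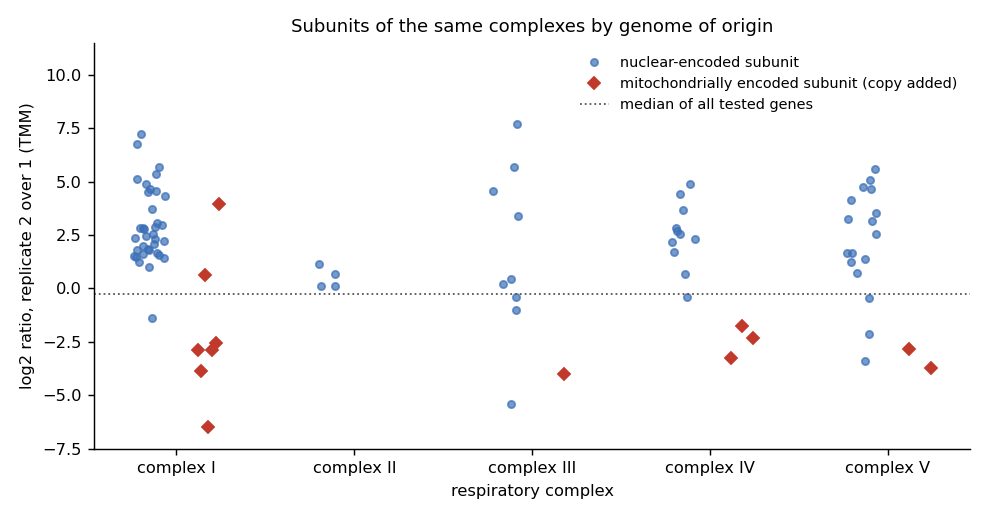
Log2 ratio of technical replicate 2 over 1 after TMM scaling for the subunits of each respiratory complex, blue circles for nuclear-encoded and red diamonds for mitochondrially encoded subunits with copies added; the dotted line is the median of all tested genes, -0.27. Of the nuclear subunits 62 of 77 were called higher, while among the mitochondrial ones mt-Nd6, at 3.97, stood far above the rest.

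The proteins of the mitochondrial ribosome, which translates the 13 messages and is built on the 2 ribosomal RNAs, were higher by TMM for 52 of 77 and lower for 4, with a median of 1.63, against 28.0% and 32.6% of all tested genes. By total counts 30 were higher and 16 lower, against 14.6% and 58.5%. Mrps27, among the 4 lower by TMM, had 280 and 0 counts, so its direction is no result. Of 28 genes for transcription and RNA processing in mitochondria, 7 were higher and 5 lower by TMM, with a median of -0.38, and neither share exceeded that of all tested genes. By total counts 2 were higher and 18 lower, against 14.6% and 58.5% of all tested genes, with a median of -1.64. Polrmt, the mitochondrial RNA polymerase, had 122 and 53 counts, at 2.91 (2.42 to 3.39). Mtpap, the poly(A) polymerase that adds the tails of mitochondrial messages, had 1264 and 18 counts, at -2.02 (-2.78 to -1.35), and Pnpt1, an exoribonuclease of mitochondrial RNA turnover, was at -2.90 (-3.74 to -2.18).

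Properties of the genes themselves moved with the ratios over all genes. All 15 measured mitochondrial genes, at 31.9% to 41.1% GC, fell in the lowest of 10 equal bins of tested genes by GC, where the median log2 ratio was -1.67, against 2.54 in the highest bin. The nuclear respiratory subunits had a median GC content of 51.7%. Length ran the other way for the short genes, since 7 of the 15 fell in the shortest of 10 bins by length, whose median was 1.53. The median length of the nuclear respiratory subunits, 673 bases, also lay in that bin, which spans 164 to 899 bases. With the GC trend removed, the median of the mitochondrial genes was -1.21. The part of GC content and length in the results was not tested beyond this.

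A list of 8 RNAs without a poly(A) tail summed to 12.6 TPM in replicate 1, with 5 of them at 0, against 682 TPM in replicate 2, with 3 at 0. The 3 that passed the filter on low counts did so through replicate 2, so their direction is no result. Of these, Rn7s1 and Rn7s2 list the same values, 12 counts in replicate 1 and 134 in replicate 2, and are near-identical signal recognition particle RNA genes whose counts are not independent. Rn7sk, a nuclear RNA that holds back transcription elongation, had 4 counts in replicate 1 and 402 in replicate 2. As background, mitochondrial ribosomal RNAs carry very short tails, and the human counterpart of mt-Nd6 is known for lacking a long one. The part of tail length in the results for mt-Rnr1, mt-Rnr2 and mt-Nd6 was not tested.

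Markers of spleen cells were present in both libraries, with 5 of 5 B cell, 4 of 4 T cell and 5 of 5 red pulp macrophage genes at 1 TPM or more in each. Their sums were lower in replicate 2, at 3008 and 1168 TPM for B cells, 254 and 36.05 for T cells and 1113 and 214 for macrophages. Red cell genes moved against the mitochondrial ones, with the 7 globin genes together at 42552 TPM in replicate 1 against 441904 TPM in replicate 2. Left out of the library totals, they moved the mitochondrial share to 4.998% and 0.670%. The 5 exocrine pancreas markers summed to 53.0 and 0.38 TPM, with 3 of them at 0 in replicate 2, the 4 adipose markers to 38.8 and 76.6 TPM, and the 3 liver markers to 1.23 and 5.27 TPM. The rise of the adipose sum lay in Cfd, at 0.79 and 43.4 TPM, while Fabp4 was at 35.0 and 32.3 TPM. The part of these cells in the mitochondrial results was not tested.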

How the data were processed

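RNA-seq of 2 libraries, technical replicates of 1 spleen, was analysed from the deposited gene tables. The aligner and quantifier are not given in the sources used here. The labels name mm10 and the text deposited with the tables GENCODE M4. The authors' tables hold, per the file headers, an expected count per gene (reads shared by several genes are split among them), a posterior mean count with its SD, and a TPM value. Lengths and effective lengths are deposited in bases as an other measure. Expected counts were rounded. Library totals were 27528824 and 3806381 on genes, so replicate 2 limits the precision. Rows without an Ensembl identifier were left out (1.09e-05% and 2.10e-04% of counts).

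The 12467 tested genes had a summed count of 50 or more and a mean TPM of 1 or more. Libraries were scaled with edgeR 4.0.16 (TMM, R 4.3.3). Log2 ratios have exact Clopper-Pearson 95% intervals, conditional on the summed count, and calls need the whole interval beyond 1.5-fold. For ratios, 3 counts per library stood in for a 0. Copies were found with BLAST 2.17.0 in GENCODE M21 transcripts (GRCm38), which also gave GC content. The rest used Python 3.11.15 with scipy 1.17.1, pandas 2.3.3, numpy 2.4.6 and matplotlib 3.10.9. Calls were also run on simulated counts with counting error alone and the scale known. That run cannot show how calls fare with PCR copies or splits between a gene and its nuclear copy.

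Every mitochondrial gene with counts is named. Nuclear genes are named by rule, the 2 highest and 2 lowest log2 ratios among called members of each list with a mean TPM of 10 or more, and not all of those are printed. Mgme1, Polg2 and Mrps27 are named outside that rule, for their low counts in replicate 2. The members and lists were chosen with earlier results of these data known. Alternatives were DESeq2 1.42.0 size factors, total counts, TPM ratios, other filters and thresholds, and trends in GC content and length removed. Posterior mean counts and shares with copies added were chosen after seeing the data.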

Additional observations from a re-analysis of the deposited data

Results flagged for a closer look

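Outside the named genes, each deposited gene table lists 26248 rows with a numeric identifier that was matched to no gene. These rows held 3 counts in technical replicate 1 and 8 counts in technical replicate 2. The 8 counts are above the 3 counts taken as the floor for a listed 0, and no control sample was at hand to set them against.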

How the results depend on the processing

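Over 251 values recomputed under other settings, 196 kept their direction and side of the threshold, 18 reversed, 35 moved and 2 fell below the threshold, both mt-Co2 alone by TPM, at 0.02. Some of the 196 could not change. Adding copies or using posterior mean counts gave the same ratio for genes without a copy, and the other filters kept the same 15 genes. By total counts the ribosomal RNA ratio was -0.21, mt-Rnr1 -0.41, mt-Rnr2 -0.12 and mt-Co3 -0.24, 2 genes were higher and the median was -4.14, and 11 nuclear subunits were lower. By TPM with a pseudocount of 1 these 4 ratios were -1.48, -1.66, -1.33 and -1.52, and with a pseudocount of 0.1 they were -1.48, -1.66, -1.33 and -1.52. By either TPM ratio 1 gene was higher and the median was -6.34, and with a pseudocount of 1, 26 nuclear subunits were higher and 28 lower. The median TPM ratio of all tested genes was then -2.10, and no share of all genes called by TPM is at hand. With copies added mt-Co2 was at -1.76, mt-Co3 at -2.33 and mt-Nd3 at 0.61, and 3 genes were higher. With posterior mean counts mt-Co3 was at -1.03. With the length trend removed mt-Rnr1 was at -0.11, mt-Co3 at -0.50, 3 genes were higher and the median was -4.37. With the GC trend removed the median was -1.21. A call beyond 2-fold left 3 genes higher. The cause of these changes was not tested.

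The mitochondrial share of replicate 1 was 10.6% of TPM, 4.998% without globin genes and 7.39% with copies, and that of replicate 2 was 0.429%, 0.670% and 0.611%. By TPM and with copies the ribosomal RNA share of mitochondrial counts was 1.87% and 2.04% in replicate 1, and 16.6% and 21.4% in replicate 2. By TPM, with copies and among protein-coding genes only, the mt-Co1 share was 21.6%, 31.3% and 45.4% in replicate 1 and 3.66%, 16.6% and 10.3% in replicate 2. The mt-Nd6 share was 0.158% by TPM and 0.0519% with copies in replicate 1, and 9.88%, 4.11% and 7.56% in replicate 2. DESeq2 size factors, TMM without mitochondrial genes, a 99% interval, a mean TPM of at least 10 and no filter kept the results recomputed under them, except that the mt-Nd3 pair, not called by TMM at 0.61, was called higher with DESeq2 size factors at 0.73. Leaving out either library leaves no comparison. No paired analysis was possible because the 2 libraries form 1 group. Depth limits mt-Nd4l most, at 12 counts with its copy in replicate 2.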

Other observations

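Calls among nuclear genes that serve the mitochondrial genome in other ways went in both directions. Of 17 mitochondrial aminoacyl-tRNA synthetases, which charge the transfer RNAs that could not be measured here, 5 were higher and 5 lower in replicate 2 by TMM, with a median log2 ratio of -0.05. These shares are close to the 28.0% higher and 32.6% lower of all tested genes. By total counts 4 were higher and 9 lower, against 14.6% and 58.5% of all genes. Lars2, which charges the leucine transfer RNAs, had 1310 counts in replicate 1 and 686 in replicate 2, a log2 ratio of 3.18 (95% counting interval 3.05 to 3.32). Iars2, the isoleucine enzyme, had 1932 and 11 counts, at -3.34 (-4.34 to -2.50). Of 6 genes of mitochondrial DNA replication, 3 were higher and 3 lower by TMM, and 2 and 3 by total counts. These are to be read against the same shares of all tested genes. Among the 3 lower, Mgme1 had 325 and 0 counts, so its direction is no result, and Polg2 had 480 and 3. Both passed the filter through replicate 1. Polg, the catalytic subunit of the DNA polymerase, was at 1.33 (1.15 to 1.51) by TMM, but at 0.07 by total counts, not called, and at -0.67 by TPM. Ssbp1, the single-strand binding protein, was at -1.27 (-1.76 to -0.82).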
